A study of Mus musculus with 21 samples.

Results

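The genes described here drive cells through the division cycle and copy their DNA. They are 44 of the 24458 genes in the expression table of embryoid bodies, taken from a list of gene names: 12 regulators of the step from G1 into S phase, 13 genes of DNA replication and 19 genes of mitosis. Embryoid bodies are balls of embryonic stem cells that differentiate once they are grown in hanging drops. The cells were mouse embryonic stem cell lines of a mixed 129/C57BL/6 strain that were either wild type or knockout for Rinf, the gene listed as Cxxc5, whose protein binds unmethylated CpG through a CXXC zinc finger. For each genotype, 2 independent lines were sampled at days 0, 3 and 6, which gives 12 libraries of total RNA, and no group received another treatment. No source used here states which part of the gene was deleted or how the lines were derived, and with 2 lines per genotype a difference between genotypes cannot be told apart from a difference between these lines. Levels are given as FPKM, reads scaled to transcript length and to library size, so that they can be set side by side between genes.

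A cell enters the cycle when D-type cyclins with Cdk4 or Cdk6, and then E-type cyclins with Cdk2, phosphorylate the retinoblastoma protein Rb1 and release E2F factors, which switch on the genes for DNA synthesis. Genes of mitosis are transcribed later in the cycle, mostly through CCAAT boxes bound by NF-Y and a short element named CHR, the cell cycle genes homology region, bound by the DREAM and MuvB-FOXM1 complexes. Pluripotent stem cells of the mouse are known for a short G1 phase, high cyclin E and high activity of cyclin-dependent kinases, and for a lengthening of G1 as they differentiate.

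Cxxc5 RNA checked the labels. Its FPKM was 31.4 and 25.1 in the wild type and 6.87 and 8.64 in the knockout libraries at day 0, 30.9 and 36.1 against 5.05 and 7.08 at day 3, and 39.8 and 52.3 against 9.38 and 11.9 at day 6. All 6 knockout libraries were below all 6 wild type libraries, with log2 fold changes of -1.74, -2.30 and -2.01. Depth was estimated from the steps of 1 read among low values and ran from 16700000 to 36000000 reads, at which an FPKM of 1 in a 2 kb transcript rests on 33.3 to 72.1 reads. Pearson correlations of log2 values across genes between replicates lay between 0.966 and 0.985. The day 6 replicates were further apart: 8.58% of tested genes in wild type and 4.92% in knockout differed by over 1.5-fold. In the other groups this share was 1.19% to 1.73%. The fit used below shares one spread per gene over all groups, the tighter ones included. The pluripotency markers (Pou5f1, Sox2, Nanog, Zfp42, Esrrb, Tdgf1, Dppa5a and Utf1) summed to between 3580 and 3660 FPKM in the day 0 libraries and to between 326 and 1040 at day 6.

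Promoter sequences of 8 members are shown: 7 replication and mitosis genes that fell together in time, 3 of which also differed between genotypes at day 6, and Cdk4, which rose, as a contrast. RefSeq start sites of the GRCm38.p6 build (mm10) gave windows of 300 bases, 250 before the start and 50 after it, for 36 of the 44 members, 39 windows in all. Each line gives the 150 bases upstream of the outermost annotated start, 5′ to 3′ on the strand of the gene. Capitals mark matches to 3 kinds of letters, each searched on both strands. The E2F-type letters are TTCCCGC, as well as TTGGCGC, the variant TTCGCGC, and the variant TTGCCGC. The CHR-type letters are TTTGAA with the variant TTCGAA and the variant TTTAAA, and the CCAAT box is searched by the letters of its name. The Cdk4 stretch lies at chr10:127063385-127063534 on the plus strand, Mcm5 at chr8:75109318-75109467 on the plus strand, Mcm6 at chr1:128359706-128359855 on the minus strand and Ccnb1 at chr13:100786487-100786636 on the minus strand. Cdk1 is at chr10:69352913-69353062, Cdc20 at chr4:118437344-118437493, Bub1 at chr2:127831860-127832009 and Top2a at chr11:99024200-99024349, all on the minus strand.
Cdk4: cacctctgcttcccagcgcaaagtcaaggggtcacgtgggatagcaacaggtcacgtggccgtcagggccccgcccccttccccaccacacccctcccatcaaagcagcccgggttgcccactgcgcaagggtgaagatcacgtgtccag
Mcm5: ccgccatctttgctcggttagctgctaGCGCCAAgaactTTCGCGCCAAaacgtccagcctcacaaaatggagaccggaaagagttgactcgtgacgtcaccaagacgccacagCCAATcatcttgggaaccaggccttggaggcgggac
Mcm6: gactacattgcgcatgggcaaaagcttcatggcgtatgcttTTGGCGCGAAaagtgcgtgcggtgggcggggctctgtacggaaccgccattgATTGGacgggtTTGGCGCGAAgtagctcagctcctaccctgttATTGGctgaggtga
Ccnb1: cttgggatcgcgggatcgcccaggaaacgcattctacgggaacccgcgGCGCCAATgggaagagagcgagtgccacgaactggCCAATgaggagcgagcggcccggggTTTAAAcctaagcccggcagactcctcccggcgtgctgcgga
Cdk1: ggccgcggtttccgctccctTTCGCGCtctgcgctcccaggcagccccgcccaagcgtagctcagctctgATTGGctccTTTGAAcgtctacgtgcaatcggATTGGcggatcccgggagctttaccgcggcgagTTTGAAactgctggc
Cdc20: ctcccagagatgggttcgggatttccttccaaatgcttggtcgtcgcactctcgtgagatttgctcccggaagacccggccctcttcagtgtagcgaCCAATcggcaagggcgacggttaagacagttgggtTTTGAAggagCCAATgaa
Bub1: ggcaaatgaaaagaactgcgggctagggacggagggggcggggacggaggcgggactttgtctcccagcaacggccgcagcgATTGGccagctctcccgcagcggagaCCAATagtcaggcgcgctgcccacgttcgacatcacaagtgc
Top2a: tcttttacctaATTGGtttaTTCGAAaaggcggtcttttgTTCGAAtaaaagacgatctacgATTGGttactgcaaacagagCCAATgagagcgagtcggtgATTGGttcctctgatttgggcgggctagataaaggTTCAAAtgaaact

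The motifs followed the roles of the genes. E2F-type letters were found in 9 of 12 windows of the replication genes (75.0%), in 3 of 11 of the G1/S genes (27.3%) and in 3 of 16 of the mitosis genes (18.8%), against 17.1% of the 12124 windows of all tested genes and 9.57% of all 32851 windows. CHR-type letters were in 15 of the 16 mitosis windows (93.8%), against 33.3% of the replication windows, 20.7% of those of tested genes and 28.8% of all windows. A CHR and a CCAAT box stood together in 14 mitosis windows (87.5%), against 8.29% for tested genes. Mcm6 shows 2 E2F stretches, each of which reads as TTGGCGC on one strand and, overlapping it, as TTCGCGC on the other. Top2a shows 3 CHR-type matches and 4 CCAAT boxes, and Ccnb1 has 2 CCAAT boxes ahead of a TTTAAA, the first of which overlaps its only E2F-type match. The stretch of Bub1 shows 2 CCAAT boxes, while the 1 CHR-type match of its window lies outside the printed bases and is not shown. Cdk4, which rose in the time course, shows none of these letters in its 150 bases. These are matches of letters, not mapped binding sites.

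At day 0 the members were expressed strongly. The highest wild type levels were those of Pcna, the sliding clamp of DNA polymerases, at 309.7 and 294 FPKM, of Top2a, the topoisomerase that untangles replicated DNA, at 303 and 284 FPKM, and of Cdk4, the kinase partner of D-type cyclins, at 264 and 272 FPKM. Pcna and Top2a overlapped and did not differ beyond the spread of their libraries, and both stood above Cdk4. Cyclin E1 (Ccne1) was at 117 and 107 FPKM and cyclin D3 (Ccnd3) at 103 and 94.4, whereas cyclin D2 (Ccnd2) was at 4.49 and 6.21 and Cdk6 at 4.63 and 4.19. Rb1 was at 5.68 and 4.45 FPKM. Cdkn2c, an inhibitor of Cdk4 and Cdk6, lay between 0.113 and 0.880 FPKM over the 12 libraries, under the mean of 1 FPKM required for testing, so that 43 of the 44 members were tested among 12472 genes.

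From day 0 to day 3 most of the machinery fell in both genotypes. Of the 43 tested members, 28 fell and 2 rose in wild type, and 28 fell and 3 rose in knockout (limma on log2(FPKM + 1), Benjamini-Hochberg adjusted p under 0.05 over all tested genes). Of all tested genes, 30.2% fell and 25.5% rose in wild type, and 28% fell and 24.6% rose in knockout. Counted in both directions the background was 55.7% and 52.6%. All 28 genes that fell in wild type also fell in knockout. The median log2 change of the members was -0.42 in wild type and -0.40 in knockout, beside -0.02 for all genes in each. Genes at the high levels of these members also leaned downwards: among the 2839 tested genes whose mean level reached 30 FPKM, the median was -0.15 and -0.18 and 41.2% and 43% fell, beside 25 of the 34 members at that level (73.5%) in each genotype. In a bulk library, fewer cells that express a gene and less RNA per cell cannot be told apart.

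Among the G1/S regulators cyclins D3, E1 and E2 fell and a kinase and an inhibitor rose. The remaining cyclin of the list, Ccnd2, had log2 changes of -0.73 in wild type and -0.60 in knockout that did not pass the test (SE 0.37). Ccnd3 had the largest fall of the members in each genotype, to 23.4 and 23.5 FPKM in wild type and 37.5 and 42.1 in knockout (log2 change -2.03, SE 0.13, adjusted p = 7.92e-06, and -1.16, SE 0.13, adjusted p = 0.00018). Ccne1, which activates Cdk2 at the start of S phase, came down from 117 and 107 to 61.7 and 59.6 FPKM in wild type and from 129 and 134 to 61.6 and 60.9 in knockout. Its log2 changes were -0.87 (SE 0.23, adjusted p = 0.011) and -1.09 (adjusted p = 0.00396), with no overlap between days. The wild type call was lost without wild type day 0 replicate 1 (adjusted p = 0.0609), without wild type day 3 replicate 2 (0.0552) or with quantile-normalized values (0.0531), in a range of log2 changes that stayed negative. Cyclin E2 (Ccne2) and the transcription factor E2f1 fell as well, by 0.37 and 0.56 in wild type and by 0.36 and 0.42 in knockout on the log2 scale. Against that trend, Cdk4 rose to 368 and 359 FPKM in wild type and to 380.3 and 375 in knockout, from 285 in both knockout libraries at day 0 (log2 changes 0.44 and 0.40, SE 0.06, adjusted p = 0.000398 and 0.000717). Cdkn1b, the p27 inhibitor of cyclin-dependent kinases, rose from 21.1 and 21.3 to 29.8 and 28.2 FPKM in wild type and from 17.3 and 19.0 to 28.3 and 27.5 in knockout. Its log2 changes were 0.44 (SE 0.08, adjusted p = 0.00129) and 0.60 (adjusted p = 0.000295). Cdk6 passed the test in knockout only, where it went from 3.74 and 3.94 to 5.38 and 5.63 FPKM (log2 change 0.43, SE 0.10, adjusted p = 0.00762). In wild type it went from 4.63 and 4.19 to 5.52 and 5.20 (adjusted p = 0.0803), and the difference between the genotypes in this change did not pass the test.

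The replication genes fell less evenly. In each genotype 8 of the 13 passed the test, all downwards, with median log2 changes of -0.21 in wild type and -0.25 in knockout. The helicase subunits Mcm3, Mcm4, Mcm5 and Mcm6 were among them, and Mcm2 and Mcm7, subunits of the same ring, did not pass. Mcm6 went from 194 and 165 to 115 and 115 FPKM in wild type and from 144 and 152 to 98.0 and 100.3 in knockout (log2 changes -0.63 and -0.57, SE 0.07). The licensing factor Cdt1 fell by 0.50 and 0.41, and Rrm2, the subunit of ribonucleotide reductase that limits the supply of deoxynucleotides, by 0.50 in each genotype on the log2 scale. Pcna, the thymidylate synthase gene Tyms, the licensing gene Cdc6 and Mcm7 had log2 changes between -0.05 and 0.04 and none passed the test. The size of this fall depended on the scaling. With quantile-normalized values 4 replication genes fell in wild type (Mcm5, Mcm6, Cdt1 and Rrm2) and 3 in knockout, the list medians were -0.03 and -0.03, and Pcna passed the test in the other direction (log2 changes 0.16 and 0.18).

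The mitosis genes fell together. In both genotypes 16 of the 19 passed the test, all 19 had a negative log2 change, and the medians were -0.50 in wild type and -0.43 in knockout. Cyclin B2 (Ccnb2), a partner of Cdk1 at mitotic entry, went from 97.3 and 96.5 to 53.0 and 56.8 FPKM in wild type (log2 change -0.81, SE 0.06, adjusted p = 1.04e-05). Top2a went from 262 and 259 to 159.6 and 158 FPKM in knockout (log2 change -0.71, SE 0.07, adjusted p = 0.000105) and by nearly the same amount in wild type (-0.72). The mitotic kinase Aurka and the survivin gene Birc5, a subunit of the chromosomal passenger complex, each fell by 0.65 in wild type, and the kinesin Kif11, which pushes spindle poles apart, fell by 0.55. Cdk1 itself fell by 0.44 in wild type and 0.40 in knockout. The 3 that did not pass were Mki67, the proliferation antigen (-0.14 in each genotype), the spindle checkpoint gene Mad2l1 (-0.20 and -0.24) and the centromeric histone gene Cenpa (-0.13 and -0.08). With quantile-normalized values 15 of the 19 still fell in wild type and 13 in knockout, with medians of -0.33 and -0.31.

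**Figure D1:**
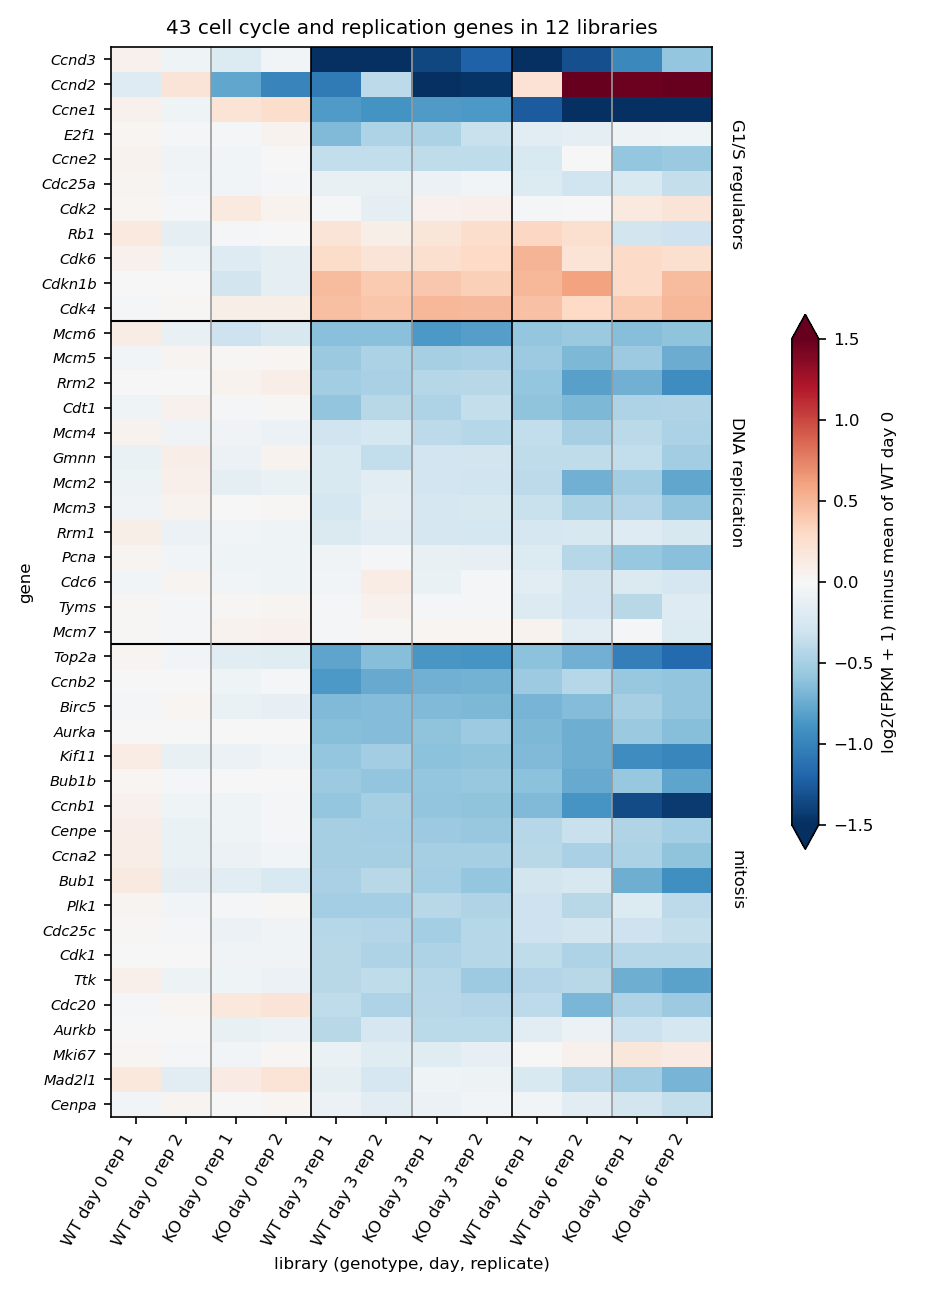
Heat map of the 43 tested members (rows, grouped by role and ordered within each group by their mean day 3 value) in the 12 libraries (columns: genotype, day, replicate), as log2(FPKM + 1) minus the mean of the 2 wild type day 0 libraries, with colours limited to 1.5 in each direction. The block of mitosis genes is mostly blue at days 3 and 6, while Cdk4 and Cdkn1b are red. At day 3 the blue is weak at Mki67, Mad2l1 and Cenpa. The knockout values of Mki67 at day 6 lie above the wild type day 0 mean.

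Summed up per library, the geometric mean of the 43 tested members stood at 76.7% and 78.4% of the wild type day 0 level in the wild type libraries at day 3 and at 76.8% and 77.6% in the knockout libraries. The groups thus overlapped at day 3. The mitosis genes were at 71.9% and 72.5% in wild type and at 71.5% in both knockout libraries. At day 6 the mitosis genes were at 75.0% and 72.6% in wild type and at 68.8% and 64.6% in knockout, so that the knockout libraries were below the wild type libraries. The replication genes went on down to 78.5% and 72.0% in wild type and 74.5% and 70.2% in knockout, which overlapped. The mean of the G1/S regulators came to between 91.1% and 95.1% in the 4 libraries. Ccnd2, a low gene with the largest rise of the members, weighs on this mean. The median log2 change of the 11 genes from day 3 to day 6 was 0.125 in wild type and -0.0006 in knockout. In wild type 8 of them were above 0 and 3 below, and in knockout 5 were above and 6 below.

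**Figure D2:**
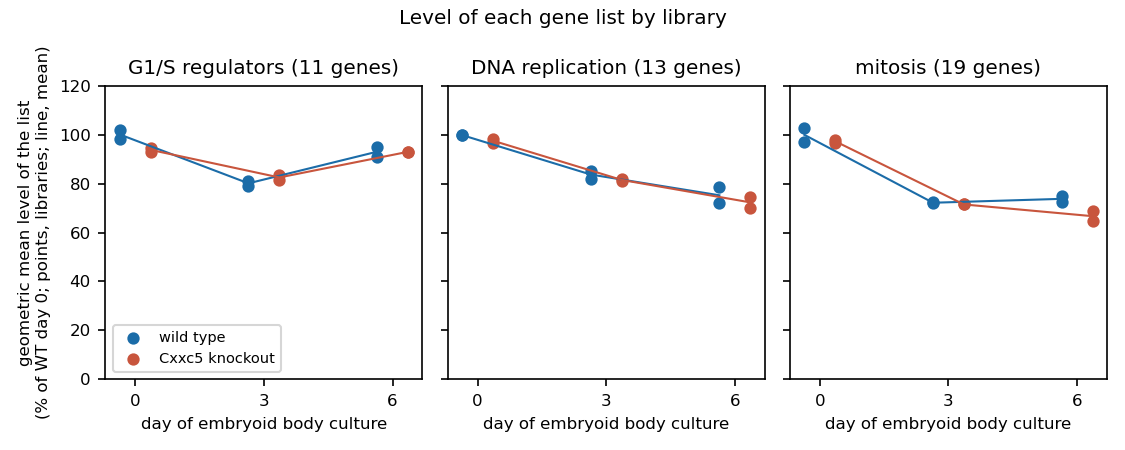
Geometric mean level of each list in every library, as a percentage of the wild type day 0 mean (y axis), by day of embryoid body culture (x axis), with points for libraries and lines through the means of 2. The 3 lists fall by day 3 in both genotypes, and at day 6 the mitosis points of the knockout (68.8% and 64.6%) lie below those of the wild type (75.0% and 72.6%).

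Between day 3 and day 6 fewer members passed the test than before. In wild type 7 members rose and 5 fell, and in knockout 5 rose and 15 fell. Of all tested genes 17.4% rose and 18.4% fell in wild type (35.9% together), and 29.2% rose and 29.9% fell in knockout (59.1% together). Cyclin D2 (Ccnd2) rose most, from 2.02 and 3.78 to 6.31 and 16.9 FPKM in wild type (log2 change 1.59, SE 0.37, adjusted p = 0.0132) and from 1.23 and 1.27 to 16.4 and 17.5 in knockout (2.99, adjusted p = 0.000325). The wild type libraries at day 6 lay far apart for Ccnd2, and the difference between the genotypes in its rise did not pass the test (1.40, SE 0.53, adjusted p = 0.149). The wild type rise was lost without wild type day 3 replicate 1 (adjusted p = 0.0813). Ccnd3 rose again (0.58 and 0.52, SE 0.13), and so did E2f1 (0.41 and 0.34, SE 0.08). Ccne1 kept falling, to 46.7 and 29.3 FPKM in wild type and 36.4 and 22.8 in knockout (log2 changes -0.70, SE 0.23, adjusted p = 0.0437, and -1.06, adjusted p = 0.00417). In wild type this fall was lost without either day 3 library or without day 6 replicate 2.

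In that interval 4 replication genes fell in wild type, Mcm2, Pcna, Tyms and Cdc6, by 0.35, 0.27, 0.26 and 0.25 on the log2 scale. In knockout 5 fell, led by Pcna (-0.48, SE 0.07, adjusted p = 0.000767), and Mcm6 rose (0.23). Among the mitosis genes Ccnb2, Aurkb and Mki67 rose in wild type and none fell, whereas in knockout 7 fell, led by cyclin B1 (Ccnb1, -0.79, SE 0.08, adjusted p = 0.00016) and Mad2l1 (-0.54, SE 0.11, adjusted p = 0.00308), and Mki67 rose (0.29). The knockout split of the mitosis genes depended on the scaling. With quantile-normalized values 4 fell and 4 rose, and with the GC and length trend of each library removed 2 fell and 4 rose and Bub1 had a value of 0.14. The wild type count for all members rests on few libraries: it was 3, 4 and 3 without wild type day 3 replicate 1, day 3 replicate 2 and day 6 replicate 2. The knockout count was 12 without either of the knockout day 3 libraries. With quantile-normalized values the split was 11 up and 1 down in wild type and 10 up and 12 down in knockout.

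Between knockout and wild type cells few differences in these genes passed the test at day 0 and day 3. At day 0, 0 of 43 members passed the test by limma, in a background where 0.369% of all tested genes passed (0.216% higher, 0.152% lower). At the looser limit of an unadjusted p under 0.05 there were 4 members (Ccnd2, Cdkn1b, Mcm6 and Top2a, all lower in knockout). The share of all genes at that limit is not given here. At day 3, 1 member passed, in a background of 1.19% (1.12% higher, 0.0722% lower). At each of these days 41 of the 43 members (95.3%) differed by less than 0.25 on the log2 scale, beside 83.9% and 84.1% of all tested genes. Mki67 was at 79.5 and 75.6 FPKM in wild type and 75.5 and 78.3 in knockout at day 0, and Cdk1 at 68.3 and 67.7 against 65.6 and 65.5.

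The member that differed at day 3 was Ccnd3. It was at 23.4 and 23.5 FPKM in wild type and at 37.5 and 42.1 in knockout, from 103 and 94.4 against 85.3 and 95.5 at day 0 (a day 3 difference of 0.74 on the log2 scale, SE 0.13, adjusted p = 0.0465). Its day 3 difference stood close to the threshold: it no longer passed without any one of the 4 day 3 libraries, with a pseudocount of 5, without the filter on low values or with GC and length trends removed, while the log2 fold change stayed between 0.62 and 0.82. The change of the difference from day 0 to day 3 was 0.86 (SE 0.19) and did not pass (adjusted p = 0.341). Its symbol covers 2 annotated starts, with 1 CCAAT box and no E2F-type or CHR-type letters in their windows, it overlaps Bysl on the opposite strand, and a pseudogene, Ccnd3-ps, carries its sequence. The use of strand in the counting is not stated, so part of its reads could belong to these.

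At day 6 the genotypes differed in 11 members, 2 higher and 9 lower in knockout. The background was 34.1% of all tested genes (17.9% higher, 16.2% lower), and 31 of the 43 (72.1%) were within 0.25 of wild type on the log2 scale, beside 53.9% of all genes. The lower members were Ccne2 and Rb1 of the G1/S group, Pcna of the replication group, and Top2a, Ccnb1, Bub1, Kif11, Ttk and Cenpa of the mitosis group. The higher were Ccnd3 and Cdk2.

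Of the mitosis members, Ccnb1, the cyclin that drives entry into mitosis, had the largest deficit. Its FPKM was 132 and 113 in wild type and 82.4 and 76.6 in knockout at day 6, after 140.3 and 148 against 139 and 138 at day 3. The knockout mean was 64.9% of wild type at day 6 (-0.61 on the log2 scale, SE 0.08, adjusted p = 0.00142). Bub1, a kinase of the spindle checkpoint, was at 61.1 and 62.9 FPKM in wild type and 44.5 and 38.8 in the knockout libraries (-0.57, SE 0.10, adjusted p = 0.00374). Top2a was at 191 and 177 against 143 and 129.9 (-0.43, SE 0.07, adjusted p = 0.00407). The checkpoint kinase gene Ttk was at 31.6 and 32.3 against 25.6 and 24.5 (-0.34, SE 0.07, adjusted p = 0.00597). In these 4 genes the genotypes did not overlap at day 6. Over all 43 members 23 showed no overlap, 7 higher and 16 lower in knockout, in a background of 63.6% (34.4% higher, 29.3% lower). Kif11 and Cenpa differed by less, with log2 fold changes of -0.26 (SE 0.08, adjusted p = 0.0306) and -0.22 (SE 0.06, adjusted p = 0.0272).

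The other 13 mitosis genes did not pass the test. Mad2l1 and Aurkb had values of -0.30 (SE 0.11, adjusted p = 0.066) and -0.17 (SE 0.06). The log2 fold changes of Cdk1, Ccnb2, Ccna2, Plk1, Cdc20, Bub1b, Cdc25c and Cenpe lay between -0.10 and 0.07, with SEs between 0.05 and 0.09. Mki67 was at 77.1 and 81.0 FPKM in wild type and 87.0 and 84.3 in knockout (0.11, SE 0.06), and Birc5 and Aurka also had positive values (0.13 and 0.10) that did not pass. Cdk1, the kinase that cyclin B1 activates, was at 52.1 and 48.9 FPKM in wild type and at 50.2 in both knockout libraries. Cyclin B2 (Ccnb2) was at 66.0 and 71.9 against 65.3 and 64.0 FPKM.

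Rb1, the retinoblastoma protein gene, was at 6.46 and 6.14 FPKM in wild type and 3.97 and 3.85 in knockout at day 6, 62.1% of wild type (-0.57, SE 0.10, adjusted p = 0.00393). At day 3 it had been at 5.88 and 5.39 against 5.84 and 6.26. Ccne2 was at 16.7 and 19.8 FPKM against 12.9 and 13.2 (-0.45, SE 0.08, adjusted p = 0.00386). Ccne1, its paralog, was spread widely within both genotypes, at 46.7 and 29.3 against 36.4 and 22.8 FPKM (-0.35, SE 0.23), and did not pass. Ccnd3 was higher in both knockout libraries, at 49.8 and 65.7 FPKM against 32.6 and 38.8 (0.67, SE 0.13, adjusted p = 0.00725). Cdk2, the kinase partner of E-type cyclins, was at 34.0 and 35.2 against 29.9 and 30.5 FPKM (0.19, SE 0.06, adjusted p = 0.0343). Rb1 overlaps Lpar6 and Rcbtb2, Ccne2 overlaps Ints8, and Cdk2 overlaps Pmel, each on the opposite strand.

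Of the 13 replication genes 1 passed at day 6. This was Pcna, at 262 and 224 FPKM in wild type and 203 and 195 in knockout (-0.28 on the log2 scale, SE 0.07, adjusted p = 0.0185). The 6 genes of the MCM ring had values between -0.11 and -0.01 and none passed. Mcm6, for example, was at 119 and 121 FPKM in wild type and 115 and 117 in knockout. Pcna and Ccnb1 have named pseudogenes (Pcna-ps1, Pcna-ps2 and Ccnb1-ps) that could share their reads.

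**Figure D3:**
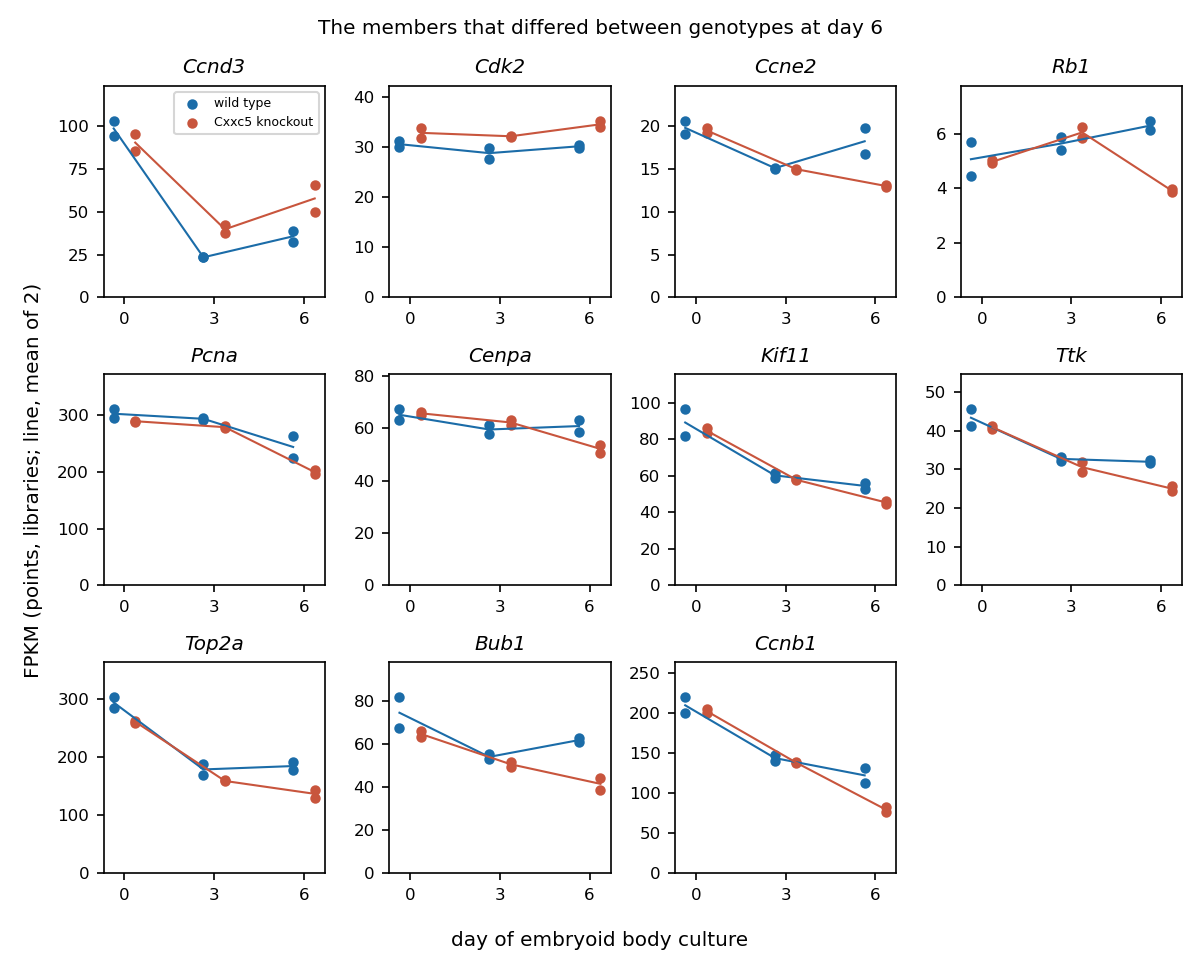
FPKM (y axis, from 0 in each panel) by day of embryoid body culture (x axis) for the 11 members that differed between genotypes at day 6, with points for libraries (blue wild type, red knockout) and lines through the means of 2. In all but Ccnd3 and Cdk2 the genotypes lie close together or overlap at day 3, and the knockout points are the lower ones at day 6.

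**Figure D4:**
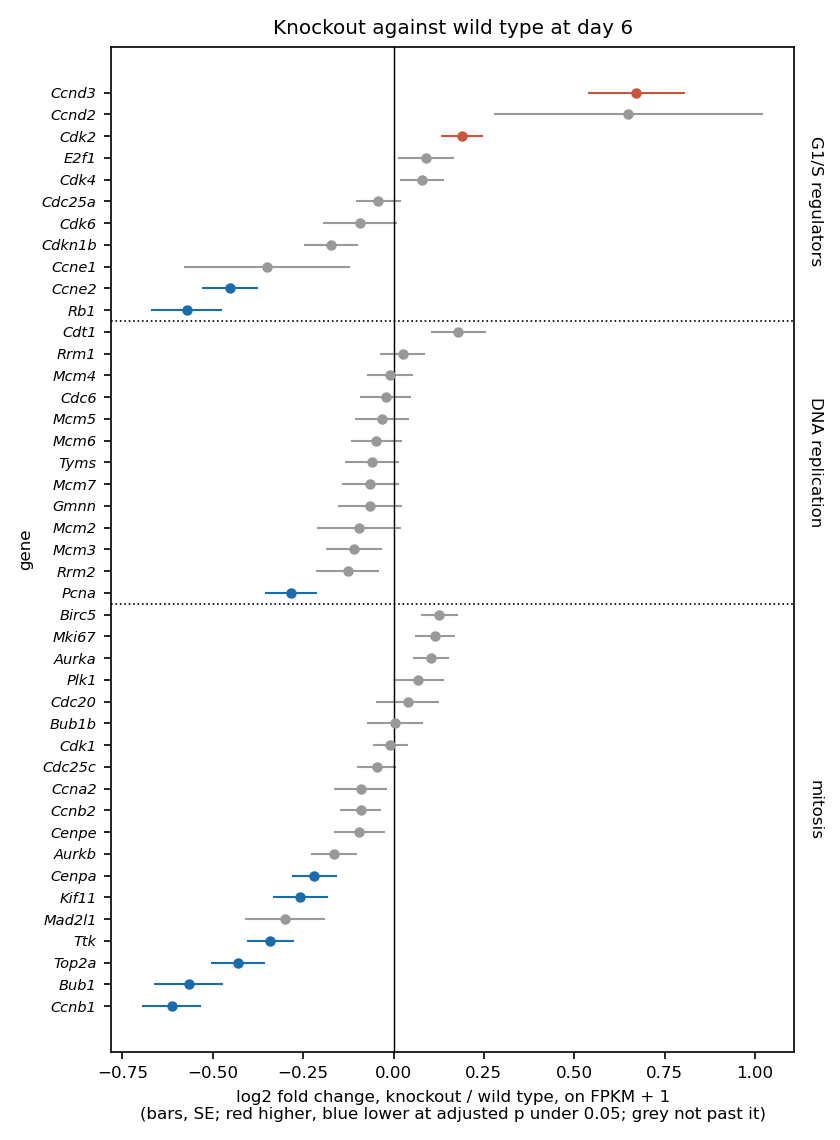
Log2 fold change of knockout over wild type on FPKM + 1 at day 6 (x axis) with SE bars for the 43 tested members (y axis), grouped by role, in red where higher and blue where lower at an adjusted p under 0.05 and in grey otherwise. The mitosis list runs from Ccnb1 at -0.61 to Birc5 at 0.13, and the replication genes cluster near 0 apart from Pcna.

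The day 6 difference moved with the GC content of the transcripts, over all genes as well as in the members. Of all tested genes with a GC content under 45%, 50.2% were lower and 1.62% higher in knockout, and of those with 55% or more, 2.73% were lower and 36.6% higher. All 4 day 6 libraries showed it by genotype. For genes under 45%, the median deviation from the gene's mean over the 4 libraries of the same day was taken. It was 0.16 and 0.14 in wild type and -0.14 and -0.16 in knockout, while at day 0 it lay between -0.04 and 0.09. At day 3 it was smaller but also split by genotype, at 0.04 and 0.05 in wild type and -0.04 and -0.05 in knockout. Among the members, 11 had a GC content under 45%, and 6 of these were lower in knockout, with a median log2 fold change of -0.30 that equals the median of all genes in that range. The 6 were Ccne2 (35.5% GC), Bub1 (41.0%), Rb1 (41.2%), Kif11 (42.2%), Top2a (43.4%) and Ttk (44.3%), and Ccnd3, the most increased member, has 59.7%. Ccnb1 (45.1%) and Cenpa (54.9%) lie above that range.

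With the GC and length trend of each library removed, a setting chosen after seeing the data, 6 members differed at day 6, 3 higher and 3 lower. Of the 11, these kept Ccnb1 (-0.42, adjusted p = 0.00852), Cenpa (-0.35, adjusted p = 0.00411) and Cdk2 (0.21, adjusted p = 0.0325), and Aurkb, Mcm4 and Rrm1 were added. Rb1, Bub1 and Top2a went to -0.20, -0.17 and -0.19 and Ccnd3 to 0.44, and none of these passed. Ccne2 and Kif11 changed sign (0.33 and 0.05) without passing. Such a fit takes out any difference that follows GC content, whether it arose in the cells or in the libraries, and which of these it was here was not tested. The falls from day 0 to day 3 were not touched to this degree, with 28 members lower in the wild type and 29 in the knockout fit.

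**Figure D5:**
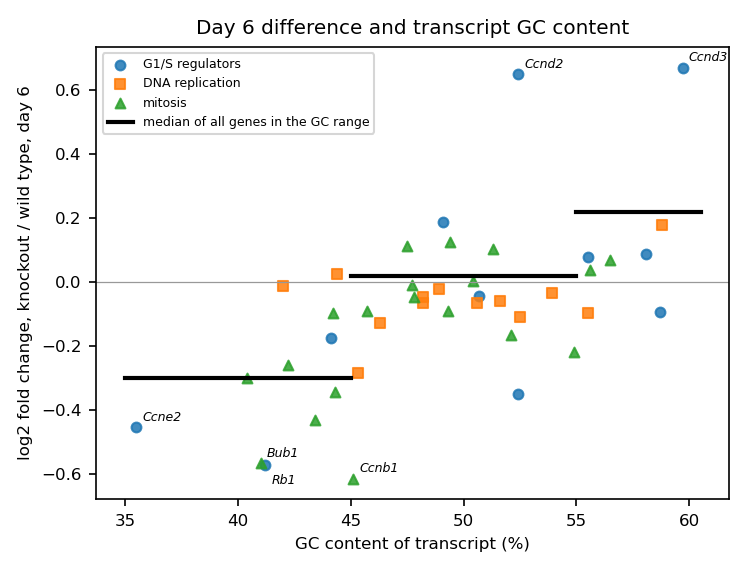
Log2 fold change of knockout over wild type at day 6 (y axis) against the GC content of the transcript in percent (x axis) for the 43 tested members, by role, with black lines at the median of all tested genes under 45%, from 45% to 55% and at 55% or more. The members under 45% scatter about the line at -0.30, from Rb1 and Bub1 at -0.57 to Mcm4 and Rrm1, which hardly differ. Ccnb1 lies below the medians on either side of it.

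Markers of several cell types also differed at day 6. Summed markers of cardiac and lateral mesoderm (7 genes) were at 17.4 to 192 FPKM in wild type and 326 to 509 in knockout. Those of trophoblast (6 genes, 5 of them tested) were at 158 to 373 and 590 to 905. Those of the primitive streak (6 genes) were at 131 to 300 and 304 to 441, and those of neuroectoderm (7 genes) at 65.6 to 106 and 25 to 52.7. These lists did not overlap between genotypes. Those of pluripotent cells overlapped, at 577 to 1040 and 326 to 720. Most of the trophoblast sum in knockout came from Krt8 (263 and 421 FPKM) and Krt18 (292 and 444). Of the 5 tested trophoblast markers 4 were higher in knockout, while the untested Elf5 was at 0.180 and 0.177 FPKM there. No marker of these lists was at 0 in both libraries of a day 6 group, and their part in the differences of the cell cycle genes was not tested. The day 6 count is sensitive to single libraries too: 7 members passed without wild type replicate 1 or without knockout replicate 2, and the 4 lost in each case were Cdk2, Cenpa, Kif11 and Pcna. Kif11 was also lost without knockout replicate 1 and Cdk2 without wild type replicate 2. Fitted on its own 4 libraries, day 6 gave 0 calls among the members by limma, beside 115 calls over all genes. At an unadjusted p under 0.05, for which no share of all genes is given here, there were 10 members.

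Whether the genotypes moved differently between day 3 and day 6 was tested by the interaction. For 2 members the change was more negative in knockout, in a background of 4.51% of all genes (1.3% more positive, 3.21% more negative): Rb1 (difference of log2 changes -0.66, SE 0.14, adjusted p = 0.0382) and Ccnb1 (-0.55, SE 0.12, adjusted p = 0.0373). Rb1 went up by 0.14 in wild type and down by 0.52 in knockout, and Ccnb1 went down by 0.24 and by 0.79. Without wild type day 6 replicate 2, 6 members passed, and without any one of the day 3 libraries or knockout day 6 replicate 2, 0 passed. From day 0 to day 3 the interaction gave 0 of 43 members by limma, in a background of 0.0401% (0.0321% and 0.00802% in the 2 directions). At an unadjusted p under 0.05, for which no share of all genes is given here, there was 1 member, Ccnd3.

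The wider machinery comprised 100 further genes of the 3 roles. From day 0 to day 3, 66 of them fell and 9 rose in wild type and 64 fell and 8 rose in knockout. The shares of all tested genes were 30.2% and 25.5% in wild type and 28% and 24.6% in knockout. From day 3 to day 6, 21 fell and 5 rose in wild type, where 5 members fell and 7 rose, and 39 fell and 16 rose in knockout. Here 18.4% of all tested genes fell and 17.4% rose in wild type, and 29.9% fell and 29.2% rose in knockout. Between genotypes 0 differed at day 0 and at day 3, beside 0.369% and 1.19% of all tested genes. At an unadjusted p under 0.05 by limma there were 12 and 10, and the share of all genes at that limit is not given here. At day 6, 12 were higher and 25 lower in knockout, beside 17.9% and 16.2% of all tested genes. Together this was a share of 37% beside the background of 34.1%. The largest deficit was that of Orc4, a subunit of the origin recognition complex, at 21.1 and 20.7 FPKM in wild type and 8.80 and 9.89 in knockout (a log2 difference of -1.08, SE 0.08, adjusted p = 0.00013). The condensin subunit gene Ncapg (-0.68) and the checkpoint kinase gene Chek1 (-0.67) followed. Cdkn1c, the p57 inhibitor of cyclin-dependent kinases, was at 17.2 and 23.3 FPKM against 54.3 and 72.3 (1.60, SE 0.17, adjusted p = 0.000541). Myc, a driver of growth and of G1 cyclins, was at 16.5 and 38.0 against 71.4 and 79.4 (1.54, SE 0.29, adjusted p = 0.00561), and cyclin D1 (Ccnd1) at 22.3 and 21.9 against 36.2 and 29.9 (0.55, SE 0.09, adjusted p = 0.00325). Foxm1, the activator of mitosis genes, was higher in knockout (0.27, SE 0.07, adjusted p = 0.0144) while 6 mitosis members were lower, and passed in 9 of 13 alternatives (adjusted p from 0.00998 to 0.137). It did not pass without knockout day 6 replicate 2, with library weights, when fitted on the 4 day 6 libraries or with GC and length trends removed. The p21 gene Cdkn1a was at 13.3 and 18.1 against 20.5 and 25.9 (0.54, SE 0.18, adjusted p = 0.0506), and Mycn at 54.0 and 41.3 against 51.8 and 50.2 (0.11, SE 0.12, adjusted p = 0.506).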

How the data were processed

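The authors deposited one table of FPKM values covering the 12 libraries of embryoid bodies. The series' design text names single-end sequencing of total RNA, adapter trimming (Trim Galore 0.4.1) and mapping to mm10 (TopHat2 2.0.13). Cufflinks 2.2.1, Cuffdiff and HTSeq 0.6.1 are named per the submitters' processing notes, and no source used here states which of them made these values or whether strand was used. FPKM divides reads by transcript length and library size, so it holds no count model and cannot show a change in total RNA per cell. All 92 spike-in rows are 0 and gave no scaling.

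Columns were matched to samples by genotype, replicate and day. The test covered the 12472 genes whose mean reached 1 FPKM. It used log2(FPKM + 1) and limma 3.58.1 (R 4.3.3), fitted to all 12 libraries with a mean for each group, a mean-variance trend and Benjamini-Hochberg adjustment over all tested genes at 0.05. A fold change on this scale understates changes of low genes. The fit was tested on simulated data. With 2 libraries against 2, an exact permutation test cannot give a p under 0.333. The labels number the replicates and name no line, so which libraries of different days came from the same line is not known. The fit assumed no pairing across days or genotypes, and would ignore a pairing of the days by line. All members may be named. Full values are given for those past the threshold between genotypes or in an interaction and for the 3 largest rises and falls between days, and, of 100 further pathway genes, for the 3 largest in each direction between genotypes plus Ccnd1, Cdkn1a, Myc, Mycn and Foxm1. Members and lists were chosen with earlier results of these data known. In a further table, of undifferentiated stem cells, 1 column of values lists 3 replicates per genotype against 2 labelled samples, so it was not analysed here. GC content and length came from GENCODE transcripts for 98.5% of the genes.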

Additional observations from a re-analysis of the deposited data

Results flagged for a closer look

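The interaction test compared the change from day 3 to day 6 between knockout and wild type (difference of log2 changes, knockout minus wild type, limma). It marked 2 of the 43 tested members and 8 of the 100 further pathway genes, beside 4.51% of all tested genes. The naming rule, with at most the 3 largest further genes in each direction, leaves 7 genes to name. Among the members these were Rb1 (-0.66, SE 0.14, adjusted p = 0.0382) and Ccnb1 (-0.55, SE 0.12, adjusted p = 0.0373). Among the further pathway genes Orc4 (-0.93, SE 0.11, adjusted p = 0.00701), Ncapg (-0.59, SE 0.11, adjusted p = 0.0268) and Chek1 (-0.58, SE 0.13, adjusted p = 0.0434) changed more negatively in knockout. Cdkn1c (1.10, SE 0.24, adjusted p = 0.0421) and Mad1l1, a spindle checkpoint gene (0.45, SE 0.10, adjusted p = 0.0423), changed more positively. Over the 17 alternatives the adjusted p of Orc4 ran from 0.00133 to 0.0457 and stayed past the threshold in all, whereas Rb1 passed in 7 (0.0253 to 0.146) and Ccnb1 in 8 (0.0071 to 0.135). Of the same 17 alternatives, Ncapg passed in 9, Cdkn1c in 6, and Chek1 and Mad1l1 in 5 each. Outliers were not sought, since each group holds 2 libraries.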

How the results depend on the processing

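The counts of members past the threshold kept within 1.5 times under pseudocounts of 0.1 and 5, both other filters, quantile normalization and library weights, apart from those given here. Knockout against wild type at day 3 (1 member) became 0 with a pseudocount of 5, with no filter and after removal of GC and length trends, and 2 with library weights. Knockout against wild type at day 6 (11) became 0 in a fit of its own 4 libraries and 6 with the GC and length trends removed. Day 6 against day 3 in wild type (12) became 7 with the replicate number as a block across days and 0 in a fit of its own libraries, where 10 members had an unadjusted p under 0.05. The day 6 interaction (2) became 1 with no filter, with library weights, in its own libraries and with the GC and length trends removed, and 0 with that block, where 8 members had an unadjusted p under 0.05. Deviations of same-numbered libraries on different days correlated at -0.0807 to 0.0755, so the numbers do not show a pairing of the days. With the replicate number as a block between genotypes the counts were 0, 1 and 12. Same-numbered libraries of the 2 genotypes had deviations that correlated at 0.0274 and 0.0834 at days 0 and 3. At day 6 the correlation was 0.243, so these libraries shared part of their deviation, which the main fit does not take up. The block changed no other count by over 1.5 times. The cause of these changes was not tested. Leaving out each library gave 0 to 0 at day 0, 0 to 0 at day 3 and 7 to 12 at day 6 between genotypes, 27 to 29 and 27 to 28 for day 3 against day 0 in wild type and knockout, 3 to 17 and 12 to 21 for day 6 against day 3, and 0 to 0 and 0 to 6 for the interactions. A group left with 1 library was assumed to vary like the others.

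Of the values of single genes, 1825 kept direction and side of the threshold, 174 lost it, 24 passed it newly and 6 reversed. The reversed values were, with GC and length trends removed, Bub1 (0.14) and Ccne2 (0.90) for day 6 against day 3 in knockout and Ccne2 (0.33) and Kif11 (0.052) for the genotypes at day 6, and, with quantile normalization, Pcna for day 3 against day 0 in knockout (0.18) and wild type (0.16). The trend removal and a fit without the day 6 libraries were chosen after seeing the data. The stem cell comparison and its alternatives were not run. Depth leaves Cdkn2c, at most 0.880 FPKM, untested.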
